A study of Mus musculus with 5 samples.

Results

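The interleukin-1 family and its receptors were followed in ear skin of mice with and without Cd1d, which displays lipid antigens to natural killer T cells. The members were 10 genes of the 27179 in the deposited count table, found by their Entrez identifiers: the ligands Il1a, Il1b, Il1f9 (Il36g), Il18 and Il33, the receptor antagonist Il1rn, and the receptors Il1r1, Il1r2, Il1rap and Il1rl1. All 10 passed the filter on low counts. Total RNA libraries came from 3 control and 2 knockout (KO) samples of B6 mice. The titles give the controls as Cd1d +/- and the KO samples as Cd1d -/-, whereas the genotype tag calls the controls WT. No treatment, age or sex is given in the labels, and the labels do not say that each library is a separate mouse, so the p-values measure the spread between these 5 libraries.

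Interleukin-1 cytokines are alarm signals of barrier tissue. Interleukin-1 alpha, interleukin-33 and interleukin-36 gamma are made by keratinocytes and other skin cells, and interleukin-1 beta mainly by activated myeloid cells. Interleukin-1 beta and interleukin-18 are cut to their active forms by caspase-1, which the inflammasome switches on. Interleukin-1 alpha and beta bind the chain encoded by Il1r1, interleukin-33 that of Il1rl1, interleukin-36 that of Il1rl2 and interleukin-18 that of Il18r1. The shared chain encoded by Il1rap then joins for interleukin-1, interleukin-33 and interleukin-36. The joined receptors act through MyD88 and IRAK kinases on NF-kappaB. Il1rn blocks Il1r1, and Il1r2 is a decoy that binds ligand without signalling.

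Total counts were 32353957 to 79160005 in the controls and 45270805 and 54596686 in KO. One read was worth 0.0119 to 0.0303 CPM (read counts scaled to library size with TMM factors). Values of a gene are given in the order of replicate number. Cd1d1 was lower in both KO libraries, at 1.19 and 1.12 CPM, than in the 3 controls, at 6.61, 9.87 and 5.52 CPM, so the labels and the targeted gene pointed the same way. Transcript length and log2 fold change were correlated across 15809 tested genes (Spearman's rho -0.55, genes being no independent replicates), so genes with long transcripts tended to be lower in KO and those with short ones higher. With offsets that remove each library's trend on length and GC content, rho was 0.02. Values with these offsets are given beside the members and the pathway genes named. Hair keratins and trichohyalin summed to 607.4 CPM in KO replicate 1 and to 11.5 to 21.5 CPM in the other 4 libraries. The basal and suprabasal keratinocyte markers Krt5, Krt14, Krt1 and Krt10 were high in all 5 libraries.

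None of the 10 members passed an adjusted p of 0.05 between KO and control (edgeR quasi-likelihood test, Benjamini-Hochberg over 17472 genes), where 3.76% of all tested genes did. At an unadjusted p under 0.05 there was 1 member, Il1rap, that is 1 of 10, against 21.9% of all tested genes. DESeq2 called 1 member, Il1rap, against 12.0% of genes, and limma voom called 2, Il1rap and Il33, against 26.7%. In the other edgeR fits that Il1rap passed, the share of all genes called was 7.11% with library size scaling, 4.77% without the count filter, 11.7% with the replicate number as a block and 18.8% without control replicate 3. No member passed where this share was 3.91% (DESeq2 size factors), 3.97% (upper quartile scaling), 4.91% (mean of at least 1 CPM), 3.53% (length and GC offsets) or 2.93% (the same with principal transcripts). The same was true at 0.12% (length offsets), 2.19% (block with both offsets), 0.0% (without control replicate 1), 7.8% (without control replicate 2), 0.00554% (without KO replicate 1) and 0.706% (without KO replicate 2). The median log2 fold change of the members was -0.06, and that of all tested genes was -0.02. With length and GC offsets these medians were -0.12 and -0.0079. In 4 of the 10 members (40.0%) the KO and control libraries did not overlap, and the same held for 39.9% of tested genes. Both shares are near each other, so the count gives no result about the family.

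**Figure D1:**
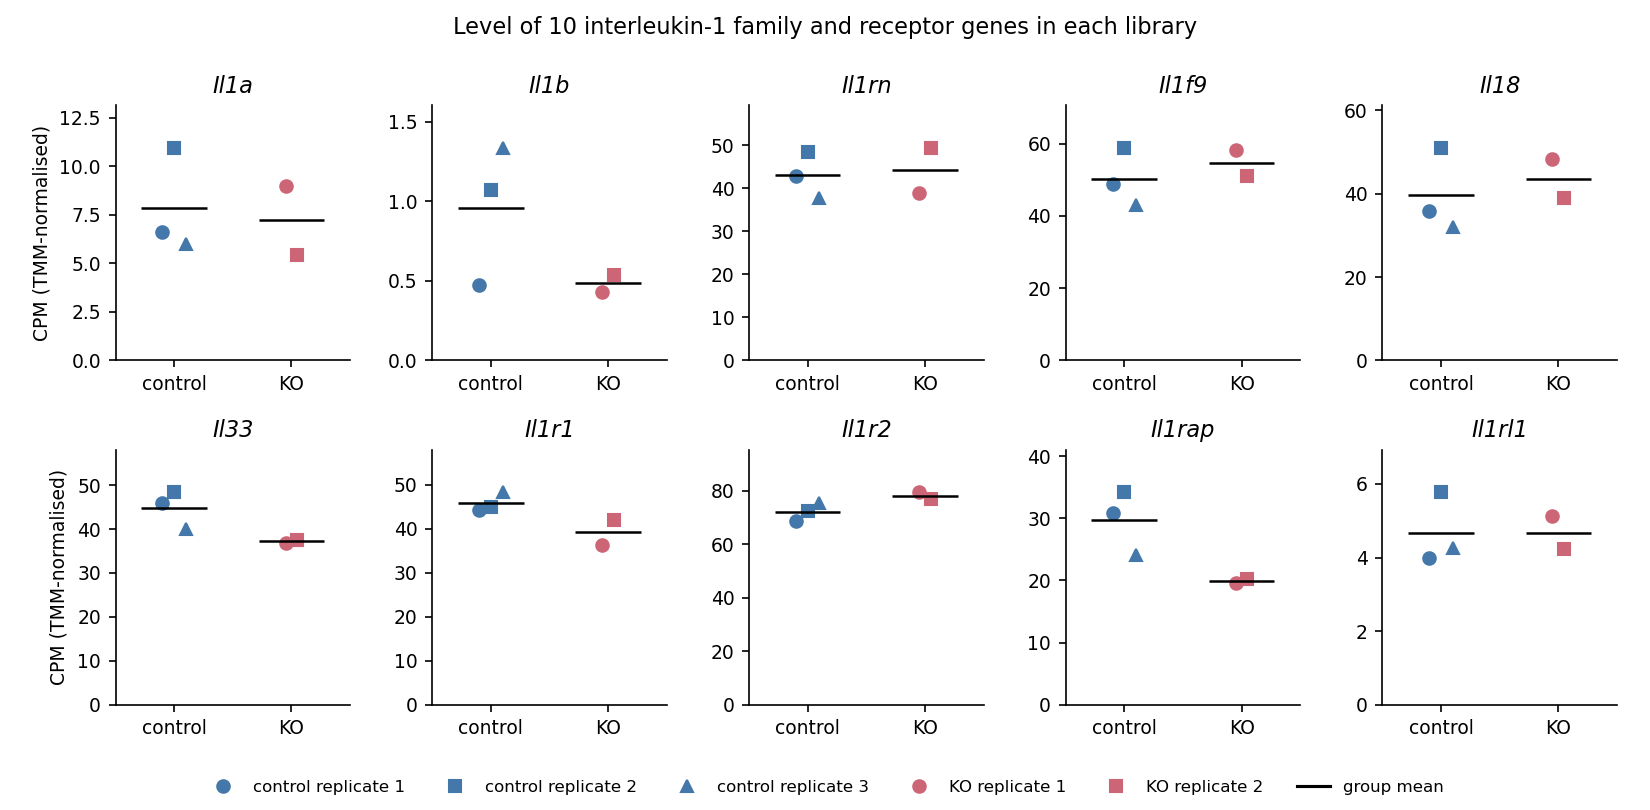
Level of each member in CPM (vertical axis, from 0) in the 3 control libraries (blue) and the 2 KO libraries (red), with a line at each group mean. For Il1rap, Il33 and Il1r1 the KO points all sit below the control points, for Il1r2 above them, and the other 6 overlap.

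Il1rap, the shared signalling chain, had the largest difference relative to its error. Its level was 30.9, 34.2 and 24.1 CPM in the controls, and 19.6 and 20.2 CPM in KO. Both KO libraries lay below the lowest control, and they were closer to each other than the controls were. The means were 29.7 ± 5.17 CPM (SD, n = 3) and 19.9 ± 0.47 CPM (SD, n = 2). The log2 fold change was -0.58 (SE 0.16, 95% interval -0.93 to -0.23), or 0.669 of the control level, with adjusted p = 0.0698 by edgeR. It missed the threshold, although the interval did not include 0.

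The call on Il1rap depended on the fit. By edgeR it passed with library size scaling (adjusted p = 0.0313), without the count filter (0.0363) and without control replicate 3 (0.00188), the control closest to KO. It also passed with DESeq2 (adjusted p = 0.0122) and limma voom (0.00235). The longest Il1rap transcript has 4520 bases. Under length and GC offsets its log2 fold change was -0.39 (SE 0.10, edgeR adjusted p = 0.0518), and with length offsets alone -0.46 (adjusted p = 0.263). Over its 18 alternatives the log2 fold change stayed negative, from -0.73 to -0.35, with adjusted p from 0.00188 to 0.441. Il1rap makes membrane and soluble forms, which gene totals do not separate, and Gm20319 lies on its opposite strand.

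The genes whose pattern over the 5 libraries lay nearest to Il1rap were Zfp445, Zfp280c and Cav2. Their Euclidean distances, on log2 (CPM + 0.1) centred on each gene's mean, were 0.06, 0.09 and 0.09. Cav2, which encodes caveolin-2, had 97.1, 114.4 and 77.8 CPM in the controls and 66.5 and 67.4 CPM in KO. None of these 3 genes passed (edgeR, adjusted p from 0.0847 to 0.105). With 5 libraries and many genes such closeness is a description only.

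Il1r1, the signalling receptor for interleukin-1, had 44.4, 45.1 and 48.4 CPM in the controls and 36.3 and 42.1 CPM in KO. Both KO libraries lay below the controls, the second by little. The log2 fold change was -0.23 (SE 0.12, 95% interval -0.50 to 0.04, edgeR adjusted p = 0.301). Il1r1 has the longest transcript of the 10 (5819 bases), and its difference was 0.02 under those offsets (adjusted p = 0.953).

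Il1r2, the decoy receptor, had a difference of the opposite sign that did not pass. It had 68.6, 72.2 and 75.2 CPM in the controls and 79.4 and 76.8 CPM in KO. Both KO libraries lay just above the highest control. The log2 fold change was 0.12 (SE 0.11, 95% interval -0.13 to 0.37, edgeR adjusted p = 0.581), and it was -0.10 with length and GC offsets and -0.03 with library size scaling. Its longest transcript has 1419 bases. Gm16894, on the opposite strand, and Gm37347 overlap the gene.

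Il1rl1, the receptor for interleukin-33 (ST2), had nearly equal group means. Its level was 3.99, 5.78 and 4.25 CPM in the controls and 5.13 and 4.22 CPM in KO. The libraries of both groups were interleaved. The log2 fold change was 0.0004 (SE 0.22, 95% interval -0.49 to 0.49, edgeR adjusted p = 0.999), an interval that reaches 0.49 in either direction. After the length and GC correction it was 0.24 (adjusted p = 0.534). Mast cells carry this receptor, and the summed level of 7 mast cell markers was 585.7 to 747.1 CPM in controls and 658.0 and 670.5 CPM in KO. Most of that sum was Mcpt4, with 325.4 to 423.4 CPM in controls and 387.5 and 393.1 CPM in KO. Another of the 7, Cpa3, was lower in KO under both offsets (-0.41, edgeR adjusted p = 0.0237) and did not pass without them (-0.28, adjusted p = 0.294). Under both offsets Ms4a2 was -0.78, Cma1 -0.29, Tpsb2 -0.28, Mcpt4 -0.20, Kit -0.14 and Fcer1a 0.12, and none of them passed. Ms4a2 lay below every control in both KO libraries, with 1.85, 1.90 and 1.46 CPM against 0.999 and 0.981 CPM. The part of mast cells in the Il1rl1 value was not tested.

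Among the ligands, Il33 had the smallest p. This nuclear alarmin of barrier and stromal cells had 45.8, 48.4 and 40.0 CPM in the controls and 36.9 and 37.6 CPM in KO. Both KO libraries lay below the lowest control. The log2 fold change was -0.27 (SE 0.12, 95% interval -0.54 to 0.01), or 0.831 of the control level, with adjusted p = 0.243 by edgeR. The length and GC offsets left it at -0.25 (adjusted p = 0.127). It passed with limma voom (adjusted p = 0.0315) and without control replicate 3 (edgeR, -0.34, adjusted p = 0.0349). Endothelial and stromal cells express Il33 in many tissues. The summed level of 5 endothelial markers was 156.0 to 179.5 CPM in controls and 134.9 and 142.9 CPM in KO. Of these Pecam1, Cdh5, Kdr and Tek lay below every control in both KO libraries. Emcn went the other way, with 13.4, 16.0 and 11.5 CPM in the controls and 18.35 and 15.8 CPM in KO. Under length and GC offsets Cdh5 was -0.43 (edgeR adjusted p = 0.0275), Pecam1 -0.30, Tek -0.25, Kdr 0.04 and Emcn 0.45 (adjusted p = 0.0438). The longest Emcn transcript has 3521 bases and its principal transcript 1357. With principal transcripts in these offsets Emcn was 0.18 (edgeR adjusted p = 0.416) and did not pass, and Cdh5 was -0.39 (adjusted p = 0.0404). The 5 fibroblast markers summed to 25210 to 32740 CPM in controls and 26060 and 26380 CPM in KO. The part of either cell type in the Il33 value was not tested, and in bulk skin fewer cells and less RNA per cell cannot be told apart.

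Il1b was scarce in all libraries. It had 40, 82 and 44 counts in the controls and 22 and 23 counts in KO, which is 0.474, 1.07 and 1.33 CPM against 0.431 and 0.537 CPM. Control replicate 1 lay between the KO libraries, so the groups overlapped. The log2 fold change of -0.96 was the largest of the 10 in size, but its standard error was 0.48 and its 95% interval ran from -2.03 to 0.12 (edgeR adjusted p = 0.28). With limma voom, which weights the libraries, it was -0.19, and under both offsets with edgeR -1.16. The neutrophil marker Ly6g had 0 counts in all 5 libraries, which allows up to 0.0356 to 0.091 CPM in a library (3 counts, counting error only). The summed level of 6 neutrophil markers, of which 3 could be tested, was 5.73 to 8.49 CPM in controls and 6.66 and 7.82 CPM in KO. Most of that sum was S100a9 and S100a8, which are also among the listed inducible targets. S100a9 had 2.645, 4.67 and 3.91 CPM in the controls and 3.11 and 4.74 CPM in KO. Csf3r, another of the 6, had 1.14, 1.17 and 1.58 CPM in the controls and 0.979 and 1.05 CPM in KO. The 5 macrophage markers summed to 286.3 to 322.9 and 317.6 and 373.6 CPM.

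Il1a, the keratinocyte alarmin, had 6.58, 10.9 and 5.98 CPM in the controls and 8.99 and 5.44 CPM in KO. The spread within each group exceeded the difference of the means (log2 fold change -0.12, SE 0.28, 95% interval -0.75 to 0.50, edgeR adjusted p = 0.843), and under both offsets it was -0.15. Il1rn, the receptor antagonist, had 42.9, 48.5 and 37.8 CPM in the controls and 38.9 and 49.4 CPM in KO. Its log2 fold change was 0.03 (SE 0.15, 95% interval -0.30 to 0.36, edgeR adjusted p = 0.925), and 0.07 under both offsets. For both genes the ranges of the groups overlapped in part.

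Il1f9, which encodes interleukin-36 gamma, had 48.9, 58.8 and 42.9 CPM in the controls and 58.2 and 51.0 CPM in KO. The groups overlapped, with a log2 fold change of 0.12 (SE 0.15, 95% interval -0.21 to 0.45, edgeR adjusted p = 0.686) that was 0.0039 under both offsets. Il18, a cytokine that keratinocytes store as a precursor, had 35.9, 51.0 and 31.9 CPM in the controls and 48.2 and 39.0 CPM in KO. Its groups overlapped as well, with a log2 fold change of 0.14 (SE 0.19, 95% interval -0.29 to 0.56, edgeR adjusted p = 0.723). The sign for Il18 turned under both offsets (-0.22, edgeR adjusted p = 0.287), and its longest transcript of 885 bases is the shortest of the 10. Bco2 and Tex12 overlap Il18 on the opposite strand, and without a stated strand setting their reads cannot be told apart. Gm14023 overlaps Il1a and Il1bos overlaps Il1b in the same way.

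**Figure D2:**
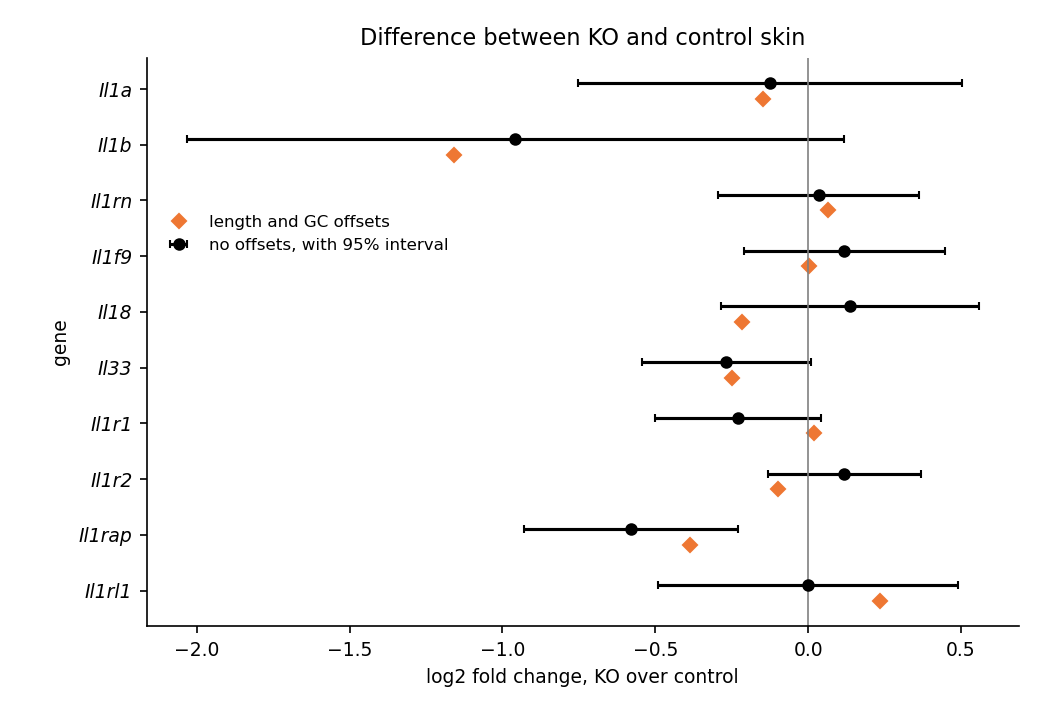
Log2 fold change of KO over control for each member (horizontal axis), with its 95% interval (black, edgeR), and the value with length and GC offsets (orange diamonds). The interval of Il1rap, -0.93 to -0.23, is the only one of the 10 that does not include 0, and the diamonds of Il18, Il1r1 and Il1r2 lie on the other side of 0 from the black points.

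The members lie in few places of the mouse genome (GRCm38, RefSeq coordinates). A receptor cluster on chromosome 1 holds Il1r2 (40084692 to 40125230), Il1r1 (40222480 to 40316201), Il1rl2 (40324589 to 40367555), Il1rl1 (40404864 to 40465418), Il18r1 (40465552 to 40500854) and Il18rap (40515362 to 40551707). A ligand cluster on chromosome 2 holds Il1f8 (24153172 to 24160103), Il1f9 (24186476 to 24193567), Il1f6 (24215417 to 24225701), Il1f5 (24276954 to 24282432), Il1f10 (24291196 to 24294165) and Il1rn (24336860 to 24351491). Il1a (129299609 to 129310186) and Il1b (129364569 to 129371164) lie further along chromosome 2. Il18 is on chromosome 9 (50554700 to 50581841), Il33 on chromosome 19 (29925113 to 29960718) and Il1rap on chromosome 16 (26581509 to 26730128).

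Upstream sequence is shown for the agonist Il1b, its antagonist Il1rn and the shared chain Il1rap, because the text compares the agonist with its antagonist and the shared chain had the smallest p of the 10. The stretches end where the outermost RefSeq transcript begins (RefSeq, GRCm38.p6) and run 5′ to 3′ on the gene's strand. Capitals mark a TATA box (TATAAA) or an AP-1 motif (TGANTCA).
Il1b, chr2:129371165-129371314, minus strand: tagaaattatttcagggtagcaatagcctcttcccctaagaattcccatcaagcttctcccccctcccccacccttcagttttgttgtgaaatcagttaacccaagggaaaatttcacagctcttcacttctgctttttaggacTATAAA
Il1rn, chr2:24336710-24336859, plus strand: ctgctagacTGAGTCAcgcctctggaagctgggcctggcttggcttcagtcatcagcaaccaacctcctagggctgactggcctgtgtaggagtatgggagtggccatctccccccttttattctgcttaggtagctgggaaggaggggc
Il1rap, chr16:26581455-26581508, plus strand: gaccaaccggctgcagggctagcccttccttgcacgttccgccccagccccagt

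The Il1b TATA box lies at bases -31 to -26 from an annotated start, and Il1a has one at -32 to -27 from its own. Both of these starts lie inside the RefSeq gene, so the same Il1b motif ends the stretch printed above. A window of Il33 has TATAAA at -29 to -24 from an annotated start. Other TATAAA matches lay in windows of Il1rn, Il18 and Il33. In windows of 300 bases around annotated starts (250 before, 50 after, both strands searched), TATAAA occurred in 13.6% of 32851 windows, TGANTCA in 7.81% and the NF-kappaB consensus motif in 8.46%. Among the 10 members the NF-kappaB consensus was found in 1 window, of Il1r1. TGANTCA was found in windows of Il1a and Il1rn. The matches are letters in a window and do not show that a factor binds there.

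Levels between genes were compared per transcript length, as CPM per kb of the principal transcript, over all 5 libraries. Il1r2 stood highest at 52.5 ± 2.95 CPM per kb (SD, n = 5), followed by Il18 at 47.9 ± 9.47, and their ranges overlapped. Il1f9 came next at 31.5 ± 4.05, apart from both neighbours. Il1rn (17.6 ± 2.16) and Il33 (16.4 ± 2.02) overlapped each other and lay apart from Il1f9 and Il1r1. Il1r1 (7.43 ± 0.77) overlapped Il1rap (5.71 ± 1.44), which overlapped Il1a (3.84 ± 1.17). Il1rl1 (0.88 ± 0.14) and Il1b (0.57 ± 0.30) were lowest, overlapped each other and lay apart from the rest. Thus per length the decoy receptor exceeded the signalling receptor in every library, and the antagonist exceeded both agonists.

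**Figure D3:**
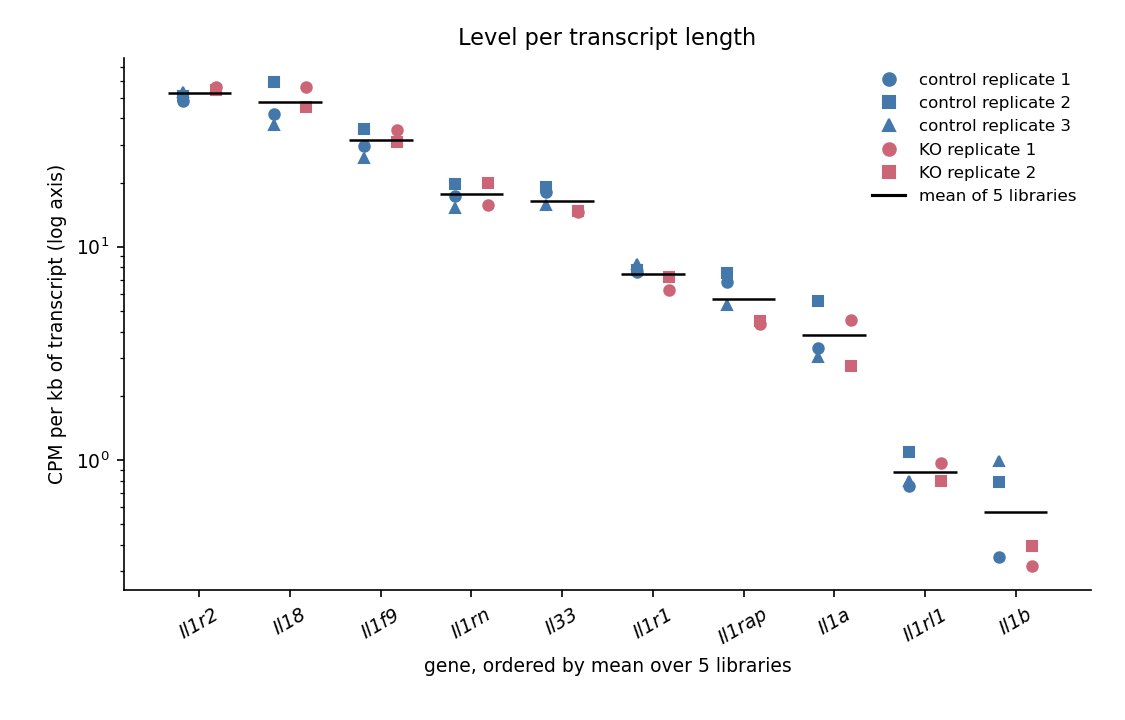
CPM per kb of transcript (vertical log axis) for the 10 members in order of their mean over 5 libraries (line), with control libraries in blue and KO libraries in red. The order runs from Il1r2 at 52.5 to Il1b at 0.57 CPM per kb.

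Ratios within a library do not depend on scaling between libraries, and 4 of them were compared after the levels had been seen. The ratio of decoy to signalling receptor, Il1r2 over Il1r1 per length, was 6.34, 6.57 and 6.37 in the controls and 8.97 and 7.48 in KO. The groups did not overlap, and the difference of the mean log2 ratios was 0.35. A two-sided exact permutation test gave p = 0.2, the smallest that 3 against 2 libraries allow, and 0.533 adjusted over the 4 ratios. The transcripts differ greatly in length, 1419 against 5819 bases, and the part of the length trend in this ratio was not tested. The log2 fold changes of Il1r2 and Il1r1 with both offsets were -0.10 and 0.02.

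The ratio of shared chain to signalling receptor, Il1rap over Il1r1, was 0.895, 0.976 and 0.641 in the controls and 0.695 and 0.619 in KO. Control replicate 3 lay between the KO libraries (exact permutation test, two-sided, p = 0.4). The antagonist ratio Il1rn over Il1a was 5.20, 3.54 and 5.04 in the controls and 3.45 and 7.25 in KO, with the groups fully overlapping (exact permutation p = 1). Il1rn over Il1b was 49.6, 24.9 and 15.5 in the controls and 49.5 and 50.5 in KO (exact permutation p = 0.4). In every library the antagonist was at least 3.45 times as abundant per length as Il1a.

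**Figure D4:**
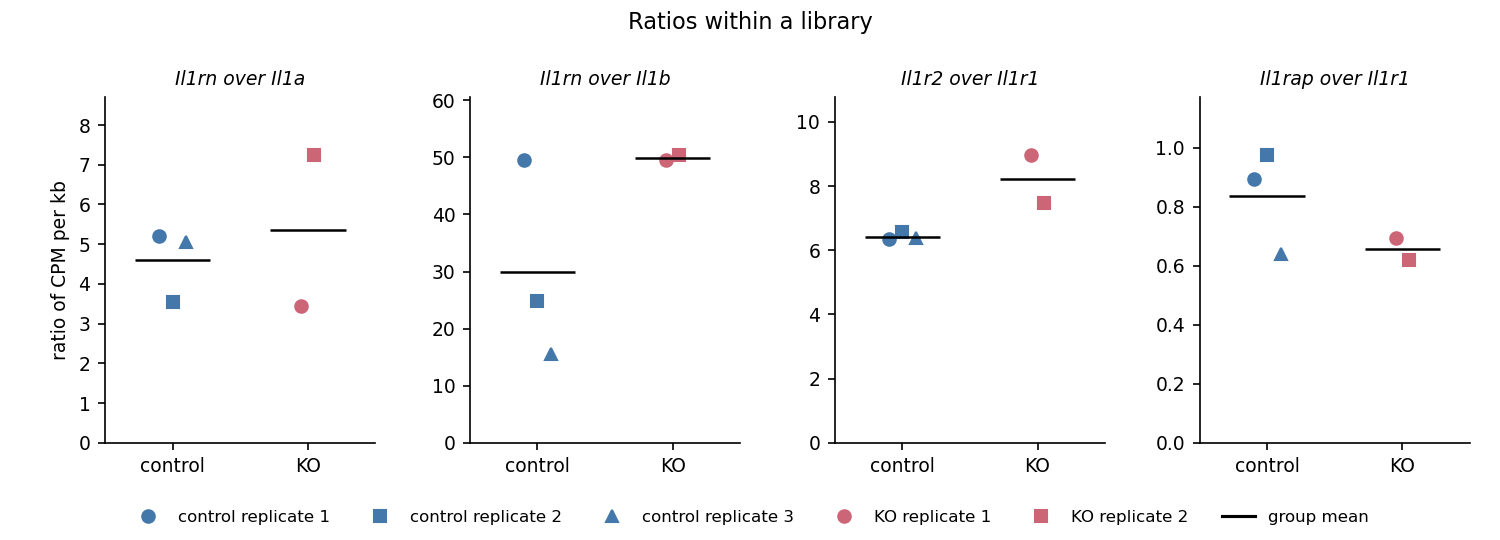
Ratios of CPM per kb within each library (vertical axes, from 0), with control libraries in blue, KO libraries in red and lines at the group means. Il1r2 over Il1r1 is the only one of the 4 whose groups do not overlap, with 6.34 to 6.57 in controls and 7.48 and 8.97 in KO.

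The other ligands, receptors and binding proteins of the family were measured by 11 listed genes, of which 9 could be tested. None passed (edgeR), and 3 of the 9 had an unadjusted p under 0.05, beside 21.9% of all tested genes. DESeq2 and limma voom each called 1, Il1rl2, beside 12.0% and 26.7% of all genes. The median log2 fold change was 0.07, and its sign turned under both offsets (-0.14). Il1rl2, the receptor chain for interleukin-36, had 20.5, 16.9 and 20.4 CPM in the controls and 9.81 and 14.1 CPM in KO. Both KO libraries lay below the controls, with a log2 fold change of -0.68 (SE 0.18, 95% interval -1.08 to -0.29, edgeR adjusted p = 0.0619), or 0.622 of the control level. It was -0.58 under both offsets (adjusted p = 0.109). By edgeR it passed with library size scaling (adjusted p = 0.0301), without the count filter (0.0261), without control replicate 2 (0.0134) and without control replicate 3 (0.0236). Without KO replicate 1 it was -0.44 (adjusted p = 0.489). The Il1rl2 product pairs with the Il1rap product.

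Il18r1, the ligand-binding receptor chain for interleukin-18, had 1.97, 2.35 and 2.97 CPM in the controls and 1.51 and 1.26 CPM in KO (log2 fold change -0.80, SE 0.28, edgeR adjusted p = 0.132, and -0.66 under both offsets). Il1f6, which encodes interleukin-36 alpha, had 12.6, 13.2 and 12.4 CPM in the controls and 13.9 and 19.2 CPM in KO (0.37, SE 0.16, edgeR adjusted p = 0.203). That value was 0.12 without KO replicate 2 and 0.59 without KO replicate 1. Il1f10, which encodes interleukin-38, had 11.2, 6.94 and 10.8 CPM in the controls and 14.9 and 11.6 CPM in KO (0.46, SE 0.21, edgeR adjusted p = 0.234). Leaving out control replicate 2 gave 0.27, and leaving out KO replicate 1 also gave 0.27. Both ligands have short transcripts, of 883 and 538 bases, and under both offsets their values were 0.02 and -0.14. Of the 9 genes the groups did not overlap in 4 (44.4%), near the 39.9% of all tested genes. Il1rapl1 and Il1rapl2 were too scarce to test.

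Among 19 genes of ligand processing and release, 18 were tested, 1 rose, 0 fell and 17 did not pass. The share of 1 in 18 stood beside 2.71% of all tested genes higher in KO. DESeq2 called 1, Pycard, and limma voom 3, Pycard, Nlrp1b and Gsdmd (named after its value was seen), beside 12.0% and 26.7% of all genes. The median log2 fold change was -0.02, and -0.16 with length and GC offsets. The gene that rose was Pycard, which encodes the inflammasome adaptor ASC that links sensors to caspase-1. Its level was 192.6, 186.0 and 197.4 CPM in the controls and 311.8 and 312.4 CPM in KO. The groups were far apart compared with their spread (log2 fold change 0.70, SE 0.11, 95% interval 0.46 to 0.94, edgeR adjusted p = 0.0186), a level 1.63-fold higher.

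Pycard had 0.80 with length and GC offsets (edgeR adjusted p = 0.00165). Length offsets alone gave 0.76 (adjusted p = 0.0372). These fits used its GENCODE transcript of 3800 bases, which is longer than the RefSeq gene span of 2495 bases. With principal transcripts and lengths limited to the gene span the value was 0.74 (edgeR adjusted p = 0.00275). A gene span includes any introns, so the spliced transcript may be shorter than either length. The offsets may therefore not fit this gene, and its value with a shorter length was not tested. With a library left out the log2 fold change stayed between 0.68 and 0.72. The adjusted p was 0.122 without control replicate 1, and 0.343 and 0.11 without KO replicates 1 and 2 (edgeR). Gm45205 lies on the opposite strand of Pycard. The summed level of 5 suprabasal keratinocyte markers was 23600 to 30830 CPM in controls and 34250 and 38000 CPM in KO. Of these Lor alone had 10370, 9652 and 15130 CPM in the controls and 23500 and 17630 CPM in KO. Ivl also lay above every control, with 53.1, 52.7 and 46.3 CPM against 64.4 and 70.55 CPM in KO. Dsg1a lay below every control, with 967.4, 1063 and 802.6 CPM against 780.5 and 763.5 CPM in KO, and Krt1 and Krt10 overlapped. Under length and GC offsets Lor was 0.34, Ivl 0.25 and Dsg1a -0.03, and none of them passed. The summed level of 3 Langerhans cell markers was 534.0 to 600.4 CPM in controls and 628.0 and 671.0 CPM in KO. Most of that sum was Cd74, with 425.1, 399.6 and 470.4 CPM in the controls and 512.6 and 485.0 CPM in KO. Under length and GC offsets Cd74 was -0.09, Epcam 0.04 and Cd207 0.06, and none of them passed. Marker sums of skeletal muscle and adipocytes also lay above every control in both KO libraries. Those of skeletal muscle were 2966 to 3203 CPM in controls and 3759 and 4389 CPM in KO. Those of adipocytes were 557.9 to 929.6 CPM in controls and 1115 and 974.7 CPM in KO. The endothelial sum lay below every control, and the remaining sums overlapped. The part of any of these cell types in the Pycard value was not tested.

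None of the listed sensors passed by edgeR, and 2 scarce ones had the smallest p among them. Nlrp3 had 0.569, 0.783 and 0.698 CPM in the controls and 0.372 and 0.233 CPM in KO, from 10 to 60 counts (log2 fold change -1.15, SE 0.44, edgeR adjusted p = 0.162, and -1.09 under both offsets). Nlrp1b had 1.63, 1.10 and 1.40 CPM in the controls and 0.764 and 0.654 CPM in KO (-0.95, SE 0.33, edgeR adjusted p = 0.13, and -0.84 under both offsets). For both sensors the KO libraries lay below every control. Nlrp1b passed with limma voom (-1.10, adjusted p = 0.0171). Nlrp10, an abundant member of this receptor class named after its value was seen, had 60.4, 61.1 and 50.5 CPM in the controls and 49.6 and 58.7 CPM in KO (-0.08, SE 0.13, edgeR adjusted p = 0.764). Casp8, a caspase that can also cut interleukin-1 beta, had 28.3, 30.9 and 28.2 CPM in the controls and 24.4 and 24.3 CPM in KO (-0.26, SE 0.12, edgeR adjusted p = 0.236, and -0.27 under both offsets). Casp1 had a log2 fold change of -0.02 (SE 0.25, 95% interval -0.58 to 0.53, edgeR adjusted p = 0.972) and is named here after its value was seen.

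All 20 listed genes of receptor signalling were tested and none passed (edgeR). There were 3 of 20 at an unadjusted p under 0.05, beside 21.9% of all tested genes. The median log2 fold change was -0.08, and 13 of the 20 values were below 0. Tab3, which helps activate the kinase TAK1, had 22.1, 23.2 and 18.5 CPM in the controls and 14.02 and 14.6 CPM in KO. Both KO libraries lay below every control (log2 fold change -0.57, SE 0.14, edgeR adjusted p = 0.0538). By edgeR it passed with library size scaling (adjusted p = 0.0283), without the count filter (0.032), with a mean of at least 1 CPM (0.0497), without control replicate 2 (0.0421) and without control replicate 3 (0.00364). Map3k7, which encodes TAK1, had 59.6, 57.3 and 53.7 CPM in the controls and 43.7 and 45.5 CPM in KO (-0.35, SE 0.12, edgeR adjusted p = 0.11). Their transcripts are long, 6364 and 5773 bases, and under both offsets the values were -0.28 and -0.11. DESeq2 called 1 of the 20, Tab3 (adjusted p = 0.00675), and limma voom called 5, beside 12.0% and 26.7% of all genes. The 5 were Tab3, Map3k7, Ikbkg, Traf6 and Rela, the last pair named after their values were seen. Rela, an NF-kappaB subunit, had a difference of the opposite sign by edgeR (0.18, adjusted p = 0.459). Map3k7 also passed by edgeR with library size scaling (adjusted p = 0.0379) and without control replicate 3 (0.0178), and Ikbkg without control replicate 3 (0.0356).

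Nfkb1, which encodes an NF-kappaB subunit, had 77.5, 81.3 and 81.5 CPM in the controls and 62.8 and 69.9 CPM in KO (log2 fold change -0.27, SE 0.12, edgeR adjusted p = 0.203). Ikbkg, which encodes the regulatory subunit NEMO, had 36.5, 38.2 and 30.3 CPM in the controls and 29.7 and 28.8 CPM in KO (-0.26, SE 0.13, edgeR adjusted p = 0.287). Under both offsets these values were -0.14 and 0.04. The KO libraries lay below every control in 8 of the 20 signalling genes (40.0%) and above in 0, where 20.0% of all tested genes lay below and 19.9% above. The list had a median transcript length of 3811.5 bases against 3271 for all tested genes, and its median log2 fold change with length and GC offsets was -0.01.

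Of 20 genes that interleukin-1 signalling can induce, 16 were tested, 1 fell, 0 rose and 15 did not pass, beside 1.05% of all tested genes lower in KO. The median log2 fold change was -0.18, and -0.38 with length and GC offsets. The gene that fell was Nfkbiz, which encodes I-kappaB-zeta, a nuclear cofactor of NF-kappaB. Its level was 23.4, 24.8 and 23.4 CPM in the controls and 15.8 and 14.3 CPM in KO. The groups were separated by more than their spread (log2 fold change -0.67, SE 0.13, 95% interval -0.95 to -0.38, edgeR adjusted p = 0.0258), a level 0.63 of the control.

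Under both offsets Nfkbiz had -0.58 (edgeR adjusted p = 0.0126), and with length offsets alone -0.58 (adjusted p = 0.117). Without control replicate 1 its adjusted p was 0.145, and without KO replicates 1 and 2 it was 0.343 and 0.219 (edgeR), with log2 fold changes from -0.74 to -0.60 over all libraries left out. DESeq2 called 1 of the 16, Nfkbiz, and limma voom 2, Nfkbiz and Ccl2, beside 12.0% and 26.7% of all genes. Ccl2, a monocyte attractant named after its value was seen, had 4.70, 7.72 and 6.77 CPM in the controls and 7.70 and 8.19 CPM in KO (0.32, SE 0.21, edgeR adjusted p = 0.412, and 0.06 under both offsets). Cxcl2, a neutrophil attractant, had 6, 60 and 40 counts in the controls and 3 and 9 in KO, and its log2 fold change of -2.31 had a standard error of 1.06 (edgeR adjusted p = 0.243, and -2.37 under both offsets). Ccl20 had 2.08, 2.63 and 1.70 CPM in the controls and 1.12 and 1.66 CPM in KO (-0.64, SE 0.30, edgeR adjusted p = 0.254, and -0.74 under both offsets). Tnfaip3, which encodes the NF-kappaB inhibitor A20, had 16.2, 17.9 and 19.5 CPM in the controls and 15.8 and 13.5 CPM in KO (-0.29, SE 0.14, edgeR adjusted p = 0.275, and -0.04 under both offsets).

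**Figure D5:**
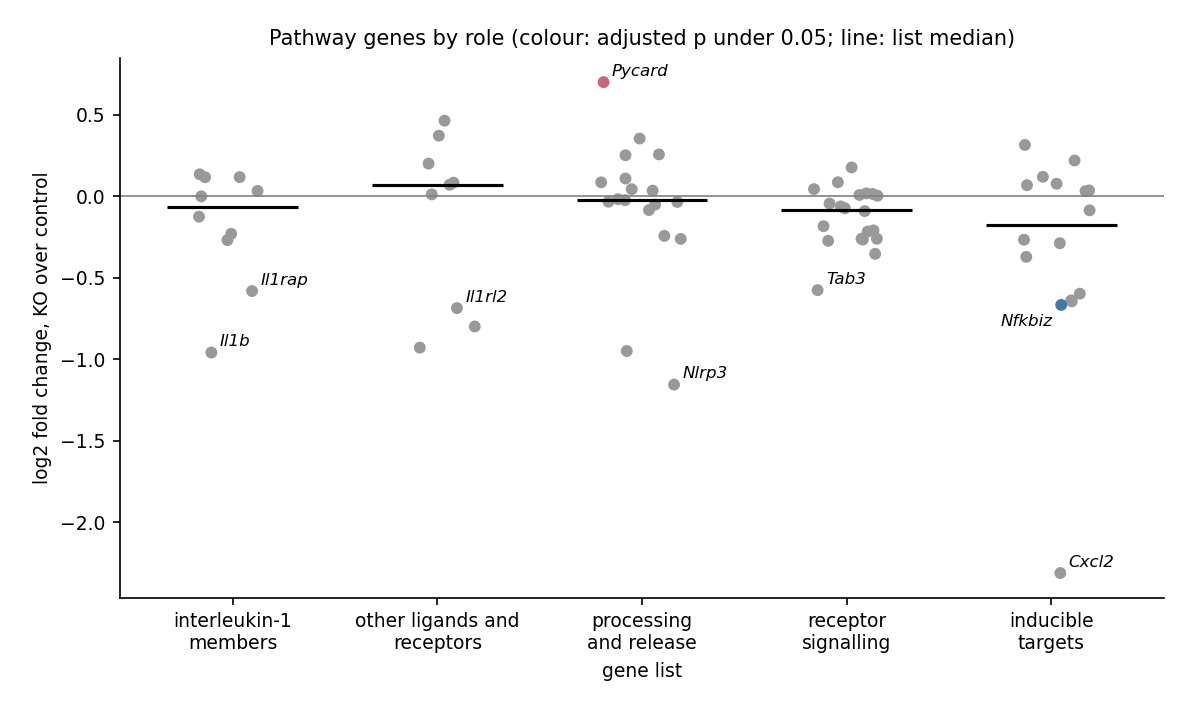
Log2 fold change of KO over control (vertical axis) for each tested gene of the members and the 4 pathway lists, with a line at each list's median. Pycard (red, 0.70) and Nfkbiz (blue, -0.67) passed an adjusted p of 0.05, and the grey genes did not.

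Over the 4 pathway lists together, 63 of 70 genes were tested, 1 rose, 1 fell and 61 did not pass, with a median log2 fold change of -0.03. That median was -0.13 with length and GC offsets, where that of all tested genes was -0.0079. The KO and control libraries did not overlap in 21 of the 63 listed genes (33.3%), below the 39.9% of all tested genes. The calls on Pycard and Nfkbiz were lost when any one of 3 libraries was left out, control replicate 1, KO replicate 1 or KO replicate 2, where 0, 1 and 128 of all genes passed. With a KO library left out, the lone KO library was assumed to vary like the controls.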

How the data were processed

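Per the labels, total RNA of mouse ear skin was sequenced. The values deposited by the authors are raw read counts, 1 whole number per Entrez gene and library. Per the submitters' processing notes, the tools were FastQC, HISAT2 2.0.4 and DESeq2 1.16.1, with the genome GRCm38. The counting program and its strand setting were not stated in the sources used here.

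Samples were grouped by title. Counts were filtered with filterByExpr (17472 genes left), scaled with TMM and tested with edgeR 4.0.16 (robust quasi-likelihood, R 4.3.3), with Benjamini-Hochberg adjustment over all tested genes and a threshold of 0.05. The fit was tested on simulated data. DESeq2 1.42.0, limma 3.58.1 (voom with quality weights) and offsets from mgcv 1.9.3 were alternatives. Symbols and positions came from RefSeq (25275 of 27179 identifiers), transcript lengths from GENCODE M21 (21572), and 12 of 13 genes looked up had a promoter window. Libraries of 1 group differed by a chi-square of 22.9 to 76.3 per degree of freedom, so none was a duplicate.

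The members, lists and tests were chosen with earlier results of these data known. All members are named. From each list the text names the 4 genes with the smallest p. It also names the 3 genes with a mean of at least 1 CPM nearest in pattern to the member with the smallest p. Exceptions are said to be chosen later.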

Additional observations from a re-analysis of the deposited data

How the results depend on the processing

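Of all genes, 657 passed in the fit reported (474 higher, 183 lower). The count was 1242 with library size scaling (268 higher, 974 lower), where the log2 fold change of all genes had a median of -0.165, 1036 without the count filter, 1808 with DESeq2, 4662 with limma voom, 21 with length offsets alone, and 0 to 3277 with 1 library left out. Of the members, where 0 passed, 1 passed with library size scaling, 1 without the filter, 1 with DESeq2, 2 with limma voom, and 0 to 2 with 1 library left out. Of the listed pathway genes, where 2 passed, 5 passed with library size scaling, 4 without the filter, 4 with DESeq2, 11 with limma voom, 1 with length offsets alone, and 0 to 7 with 1 library left out. The cause of these changes was not tested.

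The replicate numbers are shared by the titles, but deviations of same-numbered libraries correlated at 0.016 and 0.0641, over 2 pairs only, so the numbers were not taken to pair the samples. With the replicate number as a block 2037 genes, 1 member (Il1rap) and 5 listed genes passed (Pycard, Nfkbiz, Tab3, Il1rl2 and Il1f10, the last at 0.58 with adjusted p = 0.0445), and with the block and length and GC offsets 382 genes, 0 members and 2 listed genes. With the block alone Il1rn was -0.0577 and Il1rl1 -0.0409. With the block and both offsets Il1f9 was -0.0259, Il18 -0.25, Il1r1 0.13, Il1r2 -0.0375, Il1f10 -0.0322, Ikbkg 0.0085 and Tnfaip3 0.0563.

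Other log2 fold changes that changed sign, all of genes that did not pass, were these. With library size scaling Il1rn was -0.11, Il1f9 -0.0298, Il18 -0.0126, Il1r2 -0.0279 and Il1rl1 -0.15. With length and GC offsets Il18 was -0.22, Il1r1 0.019, Il1r2 -0.10, Il1f10 -0.14 and Ikbkg 0.0446. Principal transcripts were tried in these offsets after the data had been seen, and gave -0.15, 0.0455, -0.0598, -0.0857 and 0.0564. With length offsets alone Il1rn was -0.0321, Il1f9 -0.0924, Il18 -0.32, Il1r2 -0.14, Il1f6 -0.0812, Il1f10 -0.13 and Ikbkg 0.0014. With limma voom Il1a was 0.0447 and Cxcl2 0.0097. Il1rl1 was -0.0025 without the filter and -0.0031 with a mean of at least 1 CPM. With 1 library left out Il1a ranged from -0.53 to 0.20, Il1rn from -0.15 to 0.20, Il18 from -0.0258 to 0.36 and Il1rl1 from -0.15 to 0.19. Il1b, Il33 and Il1rap kept their sign in all alternatives that tested them. Il1b, Nlrp3 and Cxcl2 had no value with a mean of at least 1 CPM. Depth limits Il1b, Nlrp3 and Cxcl2, with at most 82 counts in a library.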
